A study of Drosophila melanogaster with 12 samples.

Results

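What loss of *Ldh* adds to loss of *Gpdh1* was measured by setting 3 double mutant libraries against 3 *Gpdh1* mutant libraries, 6 of the 12 whole-larva RNA-seq libraries of the series, chosen by the genotype in their titles. The double mutants carried Gpdh1[12]/Gpdh1[14] together with Ldh[16]/Ldh[17], and the *Gpdh1* mutants carried Gpdh1[12]/Gpdh1[14] alone, both in a w[1118] background. All 6 libraries therefore came from larvae without a normal copy of *Gpdh1*, and each mutated gene was represented by a single pair of alleles. The other 6 libraries were the heterozygous controls matched to these genotypes, 3 of double heterozygotes with Gpdh1[12]/+ and Ldh[16]/+, and 3 of *Gpdh1* heterozygotes with Gpdh1[12]/+, again in w[1118]. RNA came from pooled whole larvae kept for 60 h after egg collection, which the labels place in the middle of the third instar while the study's text speaks of the second instar and gives the *Gpdh1* alleles other names.

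Double mutants and *Gpdh1* mutants came from different crosses, so the loss of *Ldh* and the difference in cross cannot be told apart by these 6 libraries alone. The comparison of the heterozygous controls, which differ by their cross and by 1 mutant copy of *Ldh*, shares no library with the mutant comparison, and is given beside it. Fewer cells of a type, less RNA per cell and a different point in the larval moult cycle cannot be told apart in RNA of whole larvae either.

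Lactate dehydrogenase, the product of *Ldh*, turns pyruvate into lactate, and glycerol-3-phosphate dehydrogenase, the product of *Gpdh1*, turns dihydroxyacetone phosphate into glycerol-3-phosphate. Both reactions use up NADH and return the NAD+ that glycolysis needs to go on, and both enzymes are abundant in the fast-growing fly larva. The malate-aspartate shuttle and the mitochondrial arm of the glycerol-3-phosphate shuttle are the other main routes by which the electrons of cytosolic NADH leave the cytosol.

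The mutated genes were read first. Levels are given as CPM, gene counts scaled to a common library size by the trimmed mean of M-values (TMM) over all 12 libraries, and folds are of double mutants over *Gpdh1* mutants on the log2 scale, with the standard error (SE) of edgeR's quasi-likelihood fit and a p-value adjusted by Benjamini-Hochberg over all genes tested. *Ldh* (3L:6259105-6262694, minus strand, Ensembl BDGP6.54) had 3.95, 3.6 and 4.24 CPM in double mutants, against 379, 405 and 414 CPM in *Gpdh1* mutants (log2 fold change -6.67, SE 0.0774, adjusted p = 2.54e-10). The 3 double mutant libraries were the 3 lowest of all 12, since the double heterozygotes had 445, 439 and 457 CPM and the *Gpdh1* heterozygotes 511, 495 and 521 CPM. *Gpdh1* (2L:5943643-5948968, plus strand) had 61.9, 61.6 and 60.8 CPM in double mutants, against 232, 288 and 285 CPM in *Gpdh1* mutants (log2 fold change -2.13, SE 0.0822, adjusted p = 9.36e-08). The groups did not overlap here either, although the labels give both mutant genotypes the same *Gpdh1* alleles, so the *Gpdh1* transcript was not at equal levels in the larvae compared. Heterozygous controls held 445 to 506 CPM of *Gpdh1* in double heterozygotes and 412 to 520.3 CPM in *Gpdh1* heterozygotes.

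Reads assigned to genes numbered 25362032 to 26605495 in double mutant libraries and 23098818 to 23974769 in *Gpdh1* mutant libraries, and 24275819 to 25384382 in double heterozygotes and 22339930 to 25054868 in *Gpdh1* heterozygotes. The double mutant libraries resembled each other more than those of any other genotype, with a biological coefficient of variation of 0.0373, against 0.0995 in *Gpdh1* mutants, and 0.212 in double heterozygotes and 0.141 in *Gpdh1* heterozygotes. Replicate 2 of the double heterozygotes stood apart from its group, with a mean log2 CPM over the Osiris genes of 6.08 where the highest of its group had 7.36, so list counts that rest on the controls, and single-gene values whose call it changes, are also given without it. Nothing in the labels says whether the libraries of a genotype came from separate crosses, days or larval pools. The p-values then measure only the spread between these libraries. The study's text counts 3 biological replicates a genotype. Against counting noise, the chi-square per degree of freedom between double mutant replicates 1 and 2 was 2.42. The other double mutant pairs had 12.05 and 9.76, and pairs within other genotypes 12.8 to 118.5. Whether the 3 double mutant libraries were independent was not tested.

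Loss of *Ldh* on top of *Gpdh1* went with a broad change of the larval transcriptome. Of 10695 genes tested, 467 (4.37%) were called higher and 722 (6.75%) lower in double mutants, 11.1% together, a gene being called when it passed at 0.05 after adjustment and differed by more than 1 on the log2 scale. Without the fold limit 2344 genes (21.9%) rose and 2610 (24.4%) fell, and these shares are the background for every gene list below, whose members are counted at adjusted p under 0.05 with no fold limit. The median log2 fold change over all genes tested was 0.01. Changes over 4-fold were found for 117 called genes that rose and 152 that fell, and over 16-fold for 20 and 25 of them. The 3 double mutant and 3 *Gpdh1* mutant values did not overlap for 464 of the 467 and 711 of the 722 called genes, where 57.5% of all genes tested did not overlap. Such separation is favoured by the call itself.

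**Figure D1:**
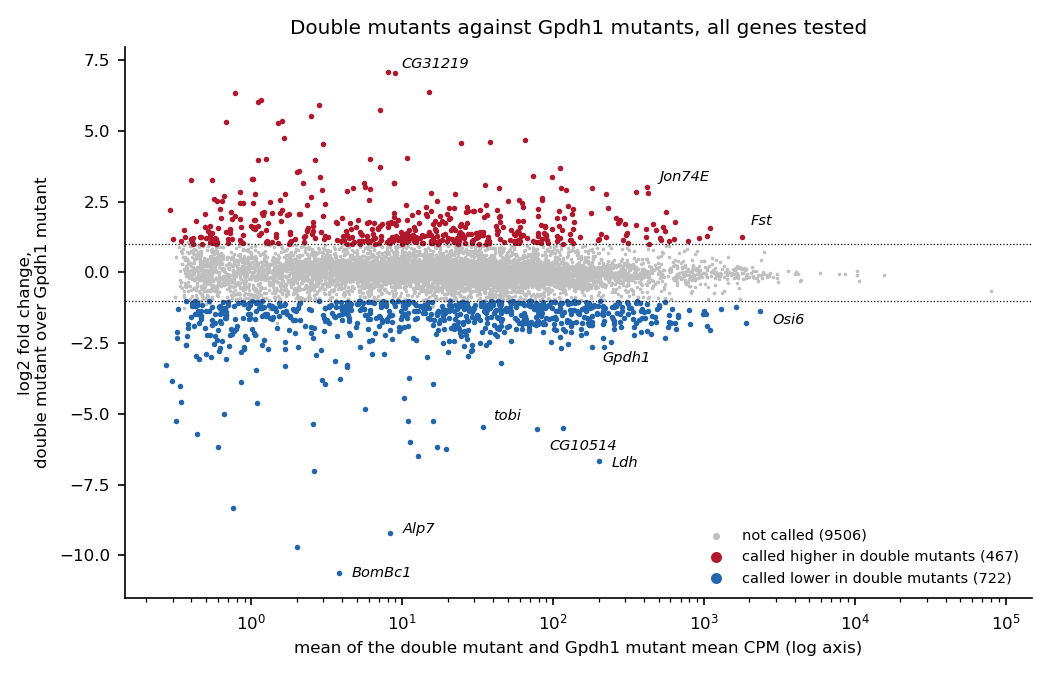
Log2 fold change of double mutants over *Gpdh1* mutants (vertical axis) against the mean of both group means in TMM-scaled CPM (horizontal log axis), 1 point a gene, with dotted lines at the fold limit of 1. The 467 genes called higher and 722 called lower spread over the whole range of levels, and *Ldh* is at -6.67.

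The double mutants stood beyond every other genotype for most of the genes that rose. In 367 of the 467 genes called higher (78.6%) all 3 double mutant libraries lay above all 9 other libraries, and in 309 of the 722 called lower (42.8%) they lay below them, where 29.4% of all genes tested had the double mutants beyond the others on either side. For 64 of the genes called higher (13.7%) and 143 of those called lower (19.8%), both double genotypes lay on 1 side of both single genotypes, against 6.19% of all genes tested. In those genes the double mutants and double heterozygotes, which both carry Ldh[16], were on the same side. Calls were made on the difference from the *Gpdh1* mutants, so the call itself largely sets the double mutants apart from those 3 libraries. The small spread of the double mutants also favours separation. The shares among called genes are therefore not like for like with those over all genes tested.

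Among the enzymes that move cytosolic NADH, changes outside the 2 mutated genes stayed under the fold limit. Of the 11 genes of the NADH shuttle list that were tested, 1 rose and 4 fell, beside 21.9% and 24.4% of all genes. The 4 were *Ldh* and *Gpdh1* themselves, *Men* and *Gpo1*, and the list median was 0.02. *Men*, the cytosolic malic enzyme that makes NADPH, had 874, 873 and 900.2 CPM in double mutants, against 1194, 1244 and 1303 CPM in *Gpdh1* mutants (log2 fold change -0.51, SE 0.0504, adjusted p = 3.49e-05). *Gpo1*, the mitochondrial glycerol-3-phosphate dehydrogenase that takes up the product of GPDH1, had 570.3, 571 and 599 CPM in double mutants, against 665, 654 and 671 CPM in *Gpdh1* mutants (log2 fold change -0.201, SE 0.0454, adjusted p = 0.00565). Neither gene overlapped between the mutants, and both lay above every control library, since the highest control value was 755 CPM for *Men* and 369.5 CPM for *Gpo1*. *aralar1*, the aspartate-glutamate carrier of the malate-aspartate shuttle, had 134, 137 and 140 CPM in double mutants, against 109, 103 and 119 CPM in *Gpdh1* mutants (log2 fold change 0.31, SE 0.0581, adjusted p = 0.00202), with all 3 double mutant values the higher. With the double mutant libraries summed into 1, *Gpo1* and *aralar1* no longer passed (adjusted p = 0.117 and adjusted p = 0.0682). The remaining shuttle enzymes did not pass the test, with log2 fold changes of 0.04 for *Mdh1*, 0.03 for *Mdh2*, 0.02 for *Got1*, -0.11 for *Got2*, 0.03 for *Men-b* and 0.13 for *Gpdh3*, a paralogue of *Gpdh1*, though *Got2* passed without *Gpdh1* mutant replicate 1 (adjusted p = 0.0201).

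Core carbohydrate metabolism moved little. Of 14 glycolytic genes 3 rose and 2 fell, with a median of -0.01, both shares being at or under the background, and 1 rose without double mutant replicate 1 or 3. Hexokinase *Hex-C* fell (-0.92, adjusted p = 0.00059), with 14.4, 13 and 12.8 CPM in double mutants, against 19.1, 29.1 and 27.2 CPM in *Gpdh1* mutants, and fructose bisphosphatase *fbp* fell by 0.35 on the log2 scale (adjusted p = 0.00197), while enolase *Eno* passed at 0.21 (adjusted p = 0.0196, but adjusted p = 0.0638 without double mutant replicate 1). Trehalase, encoded by *Treh*, splits the main blood sugar of insects. *Treh* had 243, 239 and 249 CPM in double mutants, against 156, 152 and 145 CPM in *Gpdh1* mutants (log2 fold change 0.68, SE 0.0468, adjusted p = 3.01e-06), without overlap. Glycogen phosphorylase *Glyp* passed at 0.23 (adjusted p = 0.0166, but adjusted p = 0.0531 without double mutant replicate 3) and glycogen synthase *Glys* fell by 0.23 (adjusted p = 0.00833) on the log2 scale. In the pentose phosphate pathway 2 of 7 genes rose and 0 fell by edgeR, with 0 also lower at an unadjusted p under 0.05 and by DESeq2, and *Zw*, its entry enzyme, was at 0.28 (adjusted p = 0.00296).

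In the lists of mitochondrial metabolism the changes were small and mostly downward. Of 23 genes listed for pyruvate entry and the TCA cycle 1 rose and 7 fell (median -0.08). *Idh*, an isocitrate dehydrogenase, had 723, 721 and 743 CPM in double mutants, against 952, 1107 and 1007 CPM in *Gpdh1* mutants (log2 fold change -0.496, SE 0.0612, adjusted p = 0.000146). Whether its enzyme serves the TCA cycle or acts outside it is not shown by RNA. *SdhD*, a subunit of succinate dehydrogenase, and *PCB*, pyruvate carboxylase, fell as well (-0.44 and -0.399, adjusted p = 0.00022 and 0.00611). Of 67 genes of the respiratory chain 3 rose and 18 fell, with a median of -0.07, and cytochrome c, *Cyt-c-p*, went down by 0.33 on the log2 scale (adjusted p = 0.00037). The share that fell was close to the background of 24.4%, and 2 of the 67 fell when the double mutant libraries were summed into 1, 9 without double mutant replicate 1, 8 without replicate 2 and 11 without *Gpdh1* mutant replicate 2. Of the TCA cycle list 3 fell without double mutant replicate 1 and 4 without double mutant replicate 2 or *Gpdh1* mutant replicate 2 or 3. Of 17 transcripts encoded by the mitochondrial genome, a family looked at after its values were seen, 10 fell, with log2 fold changes from -1.98 to -0.04 and a median of -0.45.

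Digestive enzymes of the gut mostly rose in double mutants. Of 14 genes for carbohydrate digestion 10 rose and 3 fell, with a median log2 fold change of 0.67, and of 26 gut serine proteases 21 rose and 2 fell, with a median of 0.76, beside 21.9% and 24.4% of all genes. All 8 maltases of the Mal-A cluster rose, by 0.60 to 2.31. *Mal-A1* had 906, 911 and 931 CPM in double mutants, against 167, 228 and 217 CPM in *Gpdh1* mutants (log2 fold change 2.16, SE 0.104, adjusted p = 3.34e-07). *Mal-A6* had 379.8, 378 and 397 CPM in double mutants, against 69.2, 84.7 and 82.1 CPM in *Gpdh1* mutants (log2 fold change 2.28, SE 0.0764, adjusted p = 5.51e-08), and *Mal-A7* 23.4, 24.3 and 24.4 CPM in double mutants, against 4.07, 5.85 and 4.54 CPM in *Gpdh1* mutants (log2 fold change 2.31, SE 0.113, adjusted p = 3.56e-07). In these 3 maltases every double mutant library was above every *Gpdh1* mutant library and above all 6 controls, whose highest value was 135 CPM for *Mal-A1*. The alpha-glucosidase gene *tobi*, which is also a known target of insulin signalling, went the other way, with 1.04, 1.87 and 1.66 CPM in double mutants, against 48, 88.2 and 63.7 CPM in *Gpdh1* mutants (log2 fold change -5.45, SE 0.279, adjusted p = 4.61e-07). It was lower in double mutants than in any of the other 9 libraries.

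Among the gut proteases *Jon74E*, a Jonah-family serine protease, changed most of those named. Its level was 716, 751 and 764 CPM in double mutants, against 78.8, 108 and 88.7 CPM in *Gpdh1* mutants (log2 fold change 3.01, SE 0.106, adjusted p = 6.47e-08), while the controls had 99.2, 145 and 109 CPM in double heterozygotes and 67.2, 23.1 and 39.6 CPM in *Gpdh1* heterozygotes. All 3 double mutant values were several-fold above all others. The trypsin gene *alphaTry* had 219.9, 220.2 and 229 CPM in double mutants, against 42.4, 44.6 and 53.3 CPM in *Gpdh1* mutants (log2 fold change 2.24, SE 0.0813, adjusted p = 7.32e-08), and *lambdaTry* 86.4, 86 and 86.3 CPM in double mutants, against 34.9, 37 and 34.1 CPM in *Gpdh1* mutants (log2 fold change 1.28, SE 0.0465, adjusted p = 7.37e-08). Groups did not overlap for either trypsin. The control log2 fold change, double over *Gpdh1* heterozygotes, was 0.32, adjusted p = 0.191 for *alphaTry* and 1.33, adjusted p = 0.0433 for *lambdaTry*, the second no longer passing without any 1 of 5 control libraries (adjusted p = 0.0609 to 0.124). By family, 12 of 16 Jonah proteases rose and 2 fell, and 9 of 10 trypsins rose. Midgut markers, which share 4 of their 9 tested genes with the protease list and 1 with the carbohydrate list, rose in 8 of 9 cases and fell in 0 (median 0.97; 0 lower also at an unadjusted p under 0.05 and by DESeq2). *mex1*, a midgut-specific gene that is in neither enzyme list, had 91.4, 86.9 and 92.2 CPM in double mutants, against 35.8, 34.6 and 37.2 CPM in *Gpdh1* mutants (log2 fold change 1.32, SE 0.0494, adjusted p = 8.21e-08), again without overlap. The summed level of the 9 markers was 2792 to 2946 CPM in double mutants and 1081 to 1252 CPM in *Gpdh1* mutants, and 652.2 to 732.9 CPM in double heterozygotes and 348.3 to 614.8 CPM in *Gpdh1* heterozygotes. Between the controls the list medians were 0.60 for midgut markers, 0.42 for gut proteases and -0.05 for carbohydrate digestion. The difference from the control change passed for 3 of 9 midgut markers in the positive and 1 in the negative direction. Without double heterozygote replicate 2 it passed for 4 and 1. It passed for *alphaTry* (1.91, adjusted p = 0.00011) and not for *lambdaTry* (-0.06, adjusted p = 0.905). Whether the enzyme changes follow the amount of midgut in the larvae was not tested.

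**Figure D2:**
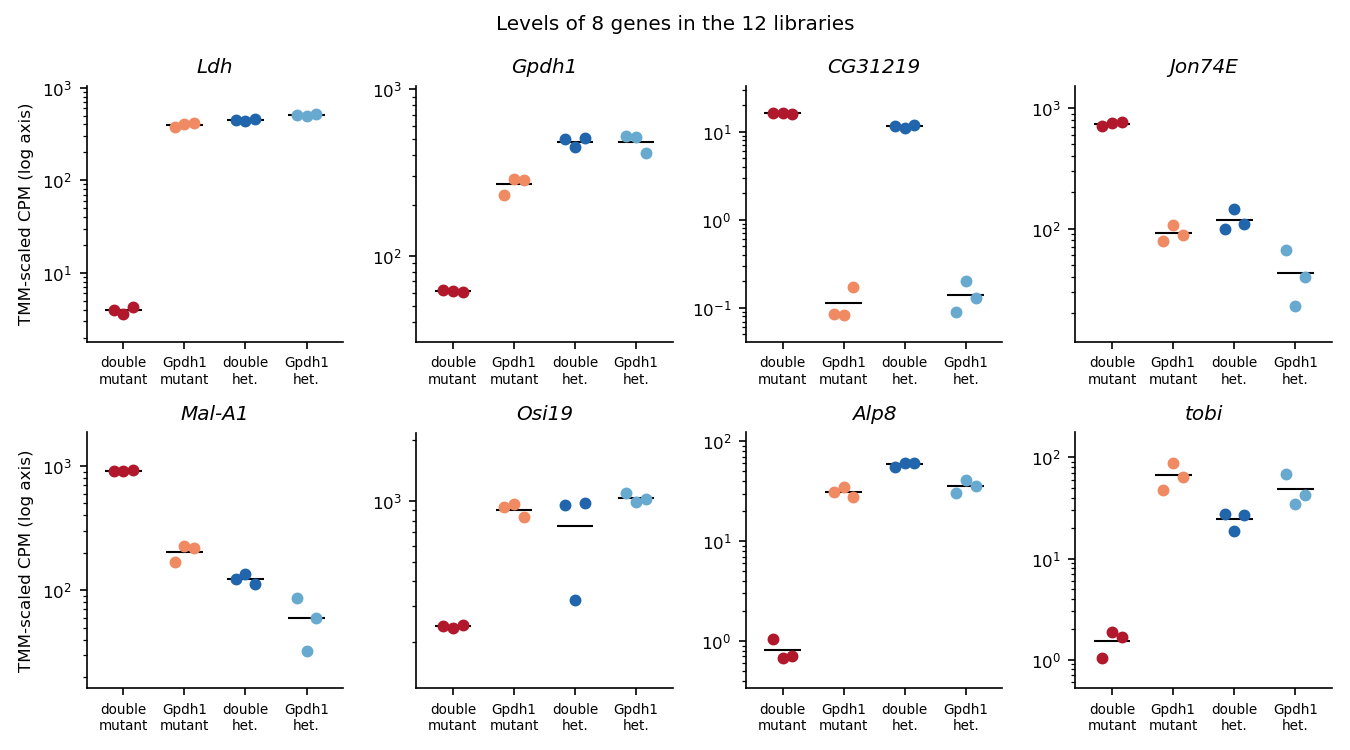
Levels of 8 genes in each of the 12 libraries in TMM-scaled CPM (vertical log axis), grouped as double mutants, *Gpdh1* mutants, double heterozygotes and *Gpdh1* heterozygotes, with a black bar at each group mean. *Ldh* and *Alp8* were low only in double mutants, *Jon74E* and *Mal-A1* were highest there, and *CG31219* was high in both double genotypes (15.7 to 16.4 CPM in double mutants).

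Detoxification enzymes changed in both directions, with a larger share rising than over all genes. Of 69 cytochrome P450 genes 31 rose and 20 fell (median 0.08), of 34 glutathione S-transferases 17 rose and 9 fell (median 0.13), and of 30 UDP-glycosyltransferases 14 rose and 7 fell (median 0.26). *Cyp6g1*, known for its part in insecticide resistance, had 45.3, 43.7 and 45.7 CPM in double mutants, against 9.53, 11.7 and 8.6 CPM in *Gpdh1* mutants (log2 fold change 2.16, SE 0.0952, adjusted p = 1.96e-07). *Cyp309a1* had 116, 118 and 119 CPM in double mutants, against 50.7, 51.8 and 52.8 CPM in *Gpdh1* mutants (log2 fold change 1.18, SE 0.0429, adjusted p = 7.52e-08), whereas *Cyp6a23* had 51.8, 53 and 52 CPM in double mutants, against 101, 96.7 and 102 CPM in *Gpdh1* mutants (log2 fold change -0.94, SE 0.044, adjusted p = 2.77e-07). The groups did not overlap for any of the 3, so the family split at the level of single genes rather than shifting as a whole. All 4 of the Cyp9 genes that passed the test, of 6 tested, rose, and so did all 4 that passed of the 6 Cyp12 genes.

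The glutathione S-transferase *GstE1* was among the 8 most abundant genes called higher, with 779, 826 and 785 CPM in double mutants, against 395, 316 and 395 CPM in *Gpdh1* mutants (log2 fold change 1.1, SE 0.0847, adjusted p = 6.07e-06). *GstD6* rose by 1.24, adjusted p = 7.20e-06, and *GstE7* fell, at -0.93, adjusted p = 8.03e-06. Of the UDP-glycosyltransferases, which attach sugars to small molecules, *Ugt303B3* had 20.4, 20.2 and 21.6 CPM in double mutants, against 5.25, 3.54 and 5.14 CPM in *Gpdh1* mutants (log2 fold change 2.15, SE 0.126, adjusted p = 1.09e-06) and *Ugt301D1* 15.8, 14.4 and 14.9 CPM in double mutants, against 35.2, 36.4 and 31.6 CPM in *Gpdh1* mutants (log2 fold change -1.2, SE 0.0698, adjusted p = 1.05e-06). Both subunits of glutamate-cysteine ligase, which makes the precursor of glutathione, rose without overlap: *Gclc*, the catalytic subunit, was at 107, 106 and 103 CPM in double mutants, against 50.9, 44.4 and 52.6 CPM in *Gpdh1* mutants (1.08, adjusted p = 1.23e-06), and *Gclm*, the modifier subunit, rose by 0.73, adjusted p = 7.73e-06. They belong to an oxidative stress list of 23 genes of which 9 rose and 6 fell, and in which the metallothionein *MtnA* had 103, 91.7 and 113 CPM in double mutants, against 337, 364 and 289 CPM in *Gpdh1* mutants (log2 fold change -1.7, SE 0.0995, adjusted p = 1.10e-06). With the double mutant libraries summed into 1, 26 cytochrome P450 genes rose and 14 fell, while 10 glutathione S-transferases rose and 4 fell, and 4 oxidative stress genes rose.

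Alkaline phosphatases and the ecdysteroid kinase-like genes held some of the largest single changes, again in both directions. All 11 alkaline phosphatases tested passed, 7 rising and 4 falling. *Alp7* was all but absent from double mutants, with 0.0359, 0.0353 and 0 CPM in double mutants, against 12.5, 25.5 and 11.9 CPM in *Gpdh1* mutants, and its controls had 168, 108 and 177 CPM in double heterozygotes and 114, 161 and 108 CPM in *Gpdh1* heterozygotes. The fitted fold (log2 fold change -9.22, SE 0.66, adjusted p = 3.89e-06) rests on at most 1 count in a double mutant library. *Alp8*, also on 2R, had 1.04, 0.671 and 0.713 CPM in double mutants, against 31.1, 34.6 and 27.5 CPM in *Gpdh1* mutants (log2 fold change -5.27, SE 0.152, adjusted p = 2.92e-08), below all 9 other libraries. *Alp9* and *Alp10*, both on 3L, were the reverse, *Alp9* with 177, 179 and 183 CPM in double mutants, against 37.2, 45.7 and 36.6 CPM in *Gpdh1* mutants (log2 fold change 2.16, SE 0.0817, adjusted p = 8.47e-08) and *Alp10* at 1.8, adjusted p = 7.37e-08.

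Of 39 ecdysteroid kinase-like genes, a family named for enzymes that phosphorylate ecdysteroids in other insects, 10 rose and 17 fell. *CG10514* had 3.77, 3.0 and 3.12 CPM in double mutants, against 171, 153 and 132 CPM in *Gpdh1* mutants (log2 fold change -5.53, SE 0.124, adjusted p = 1.56e-08), and *CG11892* 6.14, 4.16 and 4.99 CPM in double mutants, against 257, 229.6 and 199 CPM in *Gpdh1* mutants (log2 fold change -5.5, SE 0.142, adjusted p = 2.03e-08). Control levels of *CG10514* were 105 to 141 CPM in double heterozygotes and 247 to 261 CPM in *Gpdh1* heterozygotes, so that the double mutants alone were close to 0, and the difference from the control change was -4.41, adjusted p = 4.74e-07. In the opposite direction *CG31436* had 43.6, 43.6 and 46.4 CPM in double mutants, against 11, 7.91 and 7.56 CPM in *Gpdh1* mutants (log2 fold change 2.33, SE 0.117, adjusted p = 4.18e-07). It was also higher in double heterozygotes, with 20.1, 24.8 and 20.02 CPM in double heterozygotes and 5.53, 6.85 and 6.99 CPM in *Gpdh1* heterozygotes, and the difference between the mutant and control changes was 0.59, adjusted p = 0.0537, passing without double heterozygote replicate 2 (0.7003, adjusted p = 0.0206), *Gpdh1* heterozygote replicate 1 (0.69, adjusted p = 0.0364) or *Gpdh1* mutant replicate 1 (0.803, adjusted p = 0.00753).

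Cuticle genes made up the largest number of genes that fell in any list. Of 100 cuticle protein genes tested 24 rose and 64 fell, with a median of -1.13, and of 34 genes for chitin and moulting 5 rose and 19 fell, with a median of -0.34. By family, 21 of 25 Tweedle genes fell (median -1.58), 28 of 51 Cpr genes fell and 13 rose, and all 7 Ccp84 genes fell. Larval cuticle proteins with Lcp names were divided, 6 rising and 6 falling of 13. *TwdlF*, a Tweedle cuticle protein, had 424, 431 and 426 CPM in double mutants, against 1496, 1931 and 1838 CPM in *Gpdh1* mutants (log2 fold change -2.05, SE 0.0896, adjusted p = 1.92e-07), and *TwdlE* 27.1, 27.4 and 26.5 CPM in double mutants, against 89.4, 94.9 and 91.3 CPM in *Gpdh1* mutants (log2 fold change -1.78, SE 0.0457, adjusted p = 2.03e-08). *Lcp65Ag3*, by contrast, had 959, 1002 and 1053 CPM in double mutants, against 266, 288 and 316 CPM in *Gpdh1* mutants (log2 fold change 1.78, SE 0.0712, adjusted p = 1.14e-07), also without overlap. The chitin deacetylases *serp* and *verm*, which also mark trachea, fell together, *verm* having 746, 734 and 773 CPM in double mutants, against 1734, 1819 and 1926 CPM in *Gpdh1* mutants (log2 fold change -1.29, SE 0.0554, adjusted p = 1.73e-07) and *serp* being at -1.31, adjusted p = 1.43e-07. The chitinase *Cht5* had 91, 94.7 and 96.3 CPM in double mutants, against 241, 238 and 233 CPM in *Gpdh1* mutants (log2 fold change -1.35, SE 0.0455, adjusted p = 5.64e-08).

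The cuticle result depends on which libraries share the estimate of spread: when all 12 entered a single fit, 14 of 102 cuticle genes rose and 28 fell. Cuticle genes also fell between the controls, where 1 rose and 30 fell of the same 100, beside 2.77% and 5.38% of all genes, with a median of -2.03. Without replicate 2 of the double heterozygotes the control counts were 1 and 52 of 103. The test of the difference between the mutant and control changes found 30 of the 100 cuticle genes more positive in the mutant comparison and 5 more negative, beside 12% and 13.5% of all genes, or 39 and 15 of 103 without that library. For *verm* the difference was 0.07, adjusted p = 0.937, and without that library it was -0.31, adjusted p = 0.34. For *TwdlF* it was -1.19, adjusted p = 0.132, and passed without it (-1.59, adjusted p = 0.000856).

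The Osiris genes, an insect-specific family of membrane proteins encoded side by side on 3R, fell as a block. All 15 that were tested fell and 0 rose (0 also at an unadjusted p under 0.05 and by DESeq2), with log2 fold changes from -1.93 to -1.07 and a median of -1.49. *Osi6*, the most abundant of those named, had 1355, 1328 and 1302 CPM in double mutants, against 3056, 4306 and 2847 CPM in *Gpdh1* mutants (log2 fold change -1.37, SE 0.136, adjusted p = 3.58e-05). *Osi19* had 239.6, 236 and 243 CPM in double mutants, against 929, 961 and 831 CPM in *Gpdh1* mutants (log2 fold change -1.93, SE 0.062, adjusted p = 4.32e-08), and *Osi15* 529, 543 and 561 CPM in double mutants, against 1459, 1566 and 1508 CPM in *Gpdh1* mutants (log2 fold change -1.48, SE 0.0509, adjusted p = 5.64e-08). In each of the 3 the double mutants were below all *Gpdh1* mutants, and leaving out any of the 6 libraries kept 15 or 16 Osiris genes lower. Between the controls the median of the same 15 genes was -0.29, where that of the cuticle proteins was -2.03, and without double heterozygote replicate 2 the medians were 0.04 over 16 Osiris genes and -1.698 over 103 cuticle genes. The difference passed for 9 of the 15, all more negative, for 14 of 16 without double heterozygote replicate 2, and for 1 of 16 with the double mutant libraries summed into 1. Replicate 2 of the double heterozygotes held 323 CPM of *Osi19*, against 949.7 and 978 CPM in the other double heterozygotes.

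**Figure D3:**
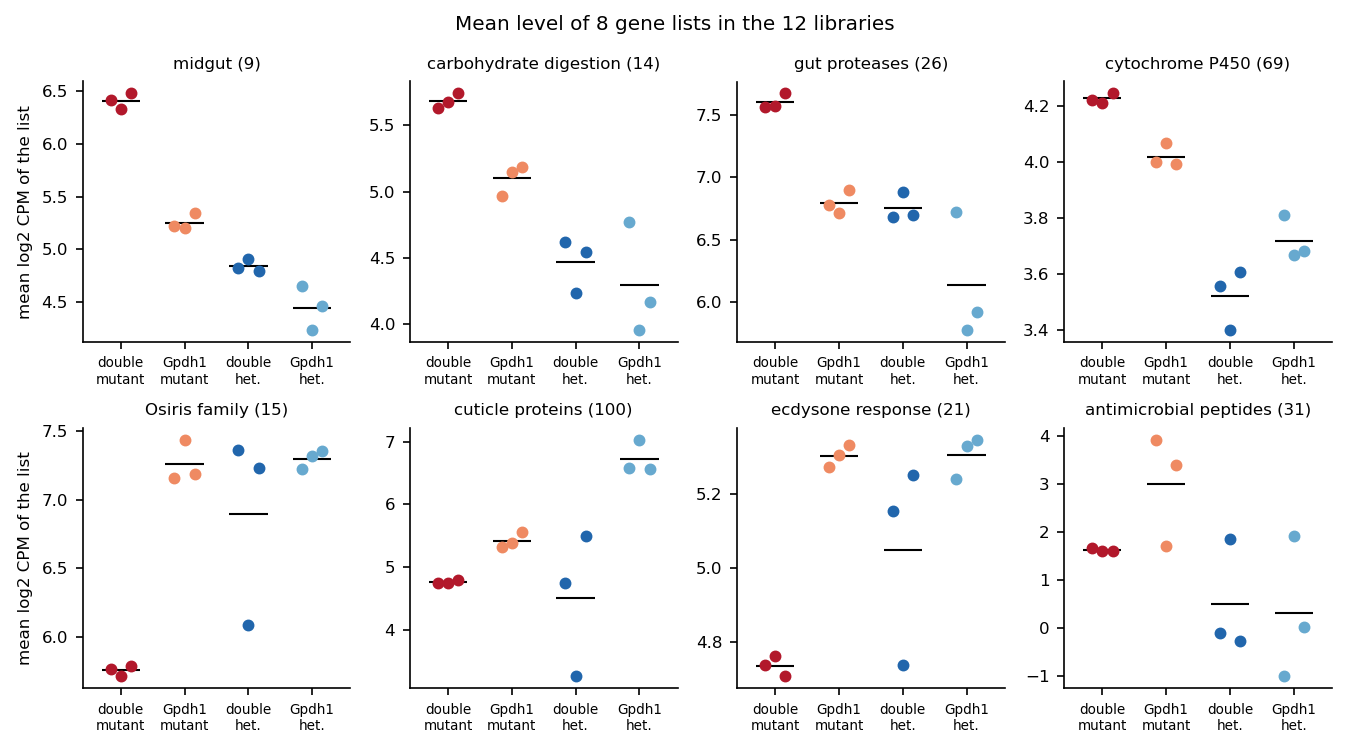
Mean log2 CPM of the tested members of 8 gene lists (number in brackets) in each of the 12 libraries, grouped as double mutants, *Gpdh1* mutants, double heterozygotes and *Gpdh1* heterozygotes, with a black bar at each group mean. Midgut markers lay at 6.33 to 6.48 in double mutants and 5.20 to 5.34 in *Gpdh1* mutants, Osiris genes at 5.71 to 5.79 and 7.16 to 7.44, and 1 double heterozygote library fell far below its group for the Osiris and cuticle lists.

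Tracheal markers fell in 6 of 7 cases and rose in 0 (median -0.88; 0 higher also at an unadjusted p under 0.05 and by DESeq2), 3 of the 7 being chitin genes as well. *Gasp*, a chitin-binding protein of the tracheal lining, had 369, 361 and 355 CPM in double mutants, against 1417, 1105 and 1263 CPM in *Gpdh1* mutants (log2 fold change -1.81, SE 0.0845, adjusted p = 2.79e-07). *uif*, a membrane protein needed to inflate tracheae, had 314, 303 and 303 CPM in double mutants, against 567, 563 and 557 CPM in *Gpdh1* mutants (log2 fold change -0.88, SE 0.0432, adjusted p = 3.56e-07), and its control libraries lay between 409 and 549.8 CPM, above all double mutants. The difference between mutant and control changes was -1.06, adjusted p = 9.84e-05 for *uif* and -0.796, adjusted p = 0.322 for *Gasp*, which passed without double heterozygote replicate 2 (-1.2, adjusted p = 0.00493).

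Ecdysone, the moulting steroid, is made in the ring gland by a chain of P450 enzymes and acts through nuclear receptors that switch on early genes. Of 11 genes for its synthesis 3 rose and 3 fell, near the shares over all genes. The symbol *phm* found no match for this list. *spok*, which acts early in the pathway, had 33, 32.8 and 32.9 CPM in double mutants, against 7.12, 11.2 and 16.5 CPM in *Gpdh1* mutants (log2 fold change 1.49, SE 0.218, adjusted p = 0.000422), and *shd*, which makes the active hormone in target tissues, 24.6, 24.3 and 23.6 CPM in double mutants, against 11.1, 10.6 and 7.61 CPM in *Gpdh1* mutants (log2 fold change 1.29, SE 0.119, adjusted p = 2.06e-05). Both were higher in double mutants in every library, *shd* also in double heterozygotes, with 7.76, 13.3 and 8.38 CPM in double heterozygotes and 3.41, 3.12 and 4.25 CPM in *Gpdh1* heterozygotes. The third that rose, *sro*, had 1.9, 1.48 and 1.66 CPM in double mutants, against 0.466, 1.03 and 0.389 CPM in *Gpdh1* mutants (log2 fold change 1.4, SE 0.308, adjusted p = 0.00499). The 3 that fell were *Npc1a*, a sterol transporter, *mld*, a zinc-finger regulator, and *ftz-f1*, a nuclear receptor that is also on the response list, at -0.43, adjusted p = 3.11e-05, -0.39, adjusted p = 0.00111 and -1.57, adjusted p = 1.12e-06. The other 5 genes of the list did not pass, between -0.67 and 0.24 on the log2 scale, the PTTH receptor *tor* passing without *Gpdh1* mutant replicate 1 (adjusted p = 0.0398). The difference from the control change did not pass for the 3 genes that rose. It was 0.80 for *spok*, -0.14 for *shd* and 0.28 for *sro* (adjusted p = 0.133, 0.759 and 0.724). *spok* passed without *Gpdh1* mutant replicate 3 (1.17, adjusted p = 0.0315). Over the 11 genes the difference passed for 0 in the positive and 1 in the negative direction, or 0 and 3 without double heterozygote replicate 2.

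Of the genes that respond to ecdysone, those that passed the test all fell. Of 21 tested 12 fell and 0 rose (median -0.20; 0 higher also at an unadjusted p under 0.05 and by DESeq2), while 1 fell between the controls, or 3 without double heterozygote replicate 2. *ImpE2*, an ecdysone-inducible secreted protein, had 77.4, 77.4 and 74.1 CPM in double mutants, against 268, 259 and 259 CPM in *Gpdh1* mutants (log2 fold change -1.79, SE 0.0453, adjusted p = 2.03e-08). The nuclear receptor *Hr4* had 37.2, 34.9 and 35.3 CPM in double mutants, against 72.5, 77.9 and 74 CPM in *Gpdh1* mutants (log2 fold change -1.07, SE 0.049, adjusted p = 2.48e-07), and *ftz-f1* 42.1, 39.1 and 35.2 CPM in double mutants, against 112, 103 and 129 CPM in *Gpdh1* mutants. For all 3 the double mutants lay below the *Gpdh1* mutants without overlap, and for *Hr4* below the controls too, at 59.3 to 76.9 CPM. *ImpL1* had 412, 419 and 402 CPM in double mutants, against 771, 885 and 718 CPM in *Gpdh1* mutants (log2 fold change -0.95, SE 0.0742, adjusted p = 6.71e-06). The difference from the control change passed for *Hr4* (-1.24, adjusted p = 1.79e-05) and *ImpL1* (-1.24, adjusted p = 0.0025), and for 5 of the 21 in all, each more negative, or 8 without double heterozygote replicate 2. For *ftz-f1*, whose level in that replicate was 13.8 CPM, it did not pass (-0.23, adjusted p = 0.848), but passed without it (-0.73, adjusted p = 0.0417).

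Secreted growth regulators, the list that holds the insulin-like peptides, growth factors and cytokines, had 8 members that rose and 5 that fell of 29. All genes tested gave 21.9% and 24.4%. *CCHa2*, a peptide of gut and fat body that acts on the insulin-producing cells, rose most in this list, with 94.3, 97.9 and 82.3 CPM in double mutants, against 22.9, 34.3 and 32.7 CPM in *Gpdh1* mutants (log2 fold change 1.6, SE 0.133, adjusted p = 1.03e-05). Its levels did not overlap between the mutants, and the difference from the control change passed (1.24, adjusted p = 0.00105). *CCHa1*, a related peptide, rose at a low level, with 2.26, 2.75 and 2.41 CPM in double mutants and 1.48, 1.15 and 1.12 CPM in *Gpdh1* mutants (0.97, adjusted p = 0.00106). Among insulin-like peptides *Ilp5*, of the insulin-producing cells, had 1.04, 0.953 and 0.849 CPM in double mutants, against 2.25, 2.76 and 2.25 CPM in *Gpdh1* mutants (log2 fold change -1.36, SE 0.168, adjusted p = 0.000146), and *Ilp6*, of the fat body, 7.8, 7.52 and 7.54 CPM in double mutants, against 5.21, 5.64 and 5.75 CPM in *Gpdh1* mutants (log2 fold change 0.45, SE 0.0794, adjusted p = 0.00134). These 2 went in opposite directions without overlap, and *Ilp8* did not pass (-0.37). *Ilp3* and *Ilp2*, also of the insulin-producing cells, passed narrowly (0.83, adjusted p = 0.0356 and -0.296, adjusted p = 0.0423) and no longer did so without a single library, adjusted p = 0.123 without double mutant replicate 1 and adjusted p = 0.14 without double mutant replicate 2. *ImpL2*, a secreted protein that binds insulin-like peptides, had 72.5, 72.8 and 72.9 CPM in double mutants, against 115, 108 and 118 CPM in *Gpdh1* mutants (log2 fold change -0.65, SE 0.0488, adjusted p = 5.28e-06), below all 9 other libraries.

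The activin-like ligand *daw* had 30.9, 30.5 and 31.7 CPM in double mutants, against 18.9, 27.6 and 23.1 CPM in *Gpdh1* mutants (log2 fold change 0.41, SE 0.113, adjusted p = 0.0153), the test no longer being passed without double mutant replicate 3 (adjusted p = 0.0603). *Lst*, the decretin limostatin, was at -0.21, adjusted p = 0.00827, and did not pass with all 12 libraries in 1 fit (adjusted p = 0.615). The activin *Actbeta* (0.32, adjusted p = 0.0325) and the growth-blocking peptides *Gbp3* (0.27, adjusted p = 0.0239) and *Gbp1* (-0.43, adjusted p = 0.0363) passed narrowly with all 6 libraries, their highest values with 1 left out being adjusted p = 0.113 without double mutant replicate 2, adjusted p = 0.0703 without double mutant replicate 1 and adjusted p = 0.127 without double mutant replicate 1. The cytokine *upd3* had 0.97, 0.988 and 1.32 CPM in double mutants, against 0.847, 1.07 and 1.12 CPM in *Gpdh1* mutants (log2 fold change 0.105, SE 0.215, adjusted p = 0.719), so the mutants overlapped and the test was not passed. Between the controls *upd3* was lower in double heterozygotes, with 0.456, 0.38 and 0.43 CPM in double heterozygotes and 1.21, 0.755 and 0.858 CPM in *Gpdh1* heterozygotes (-1.18, adjusted p = 0.0445, but 0.086 to 0.129 with any 1 control library left out), and the difference between the mutant and control changes was 1.27, adjusted p = 0.0166, or 1.05, adjusted p = 0.0505 without *Gpdh1* heterozygote replicate 1 and 0.0582 with the double mutant libraries summed. *upd1* was at a low level, with 0.683, 0.741 and 0.747 CPM in double mutants, against 0.297, 0.206 and 0.519 CPM in *Gpdh1* mutants (1.08, adjusted p = 0.0252, but adjusted p = 0.0777 without *Gpdh1* mutant replicate 2), and *upd2* did not pass (0.15, adjusted p = 0.748). The 13 other members that did not pass lay between -0.17 and 0.21 on the log2 scale, and 3 of these passed without *Gpdh1* mutant replicate 1, *Gbp2* (adjusted p = 0.00265), *NimB5* (adjusted p = 0.0118) and *myo* (adjusted p = 0.0211). With the double mutant libraries summed into 1, 3 of the list rose and 2 fell, and 4 or 5 rose without any 1 double mutant library or without *Gpdh1* mutant replicate 2.

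The JAK/STAT pathway, which the Unpaired cytokines switch on, showed 3 of 12 genes that rose and 1 that fell. Over all genes tested 21.9% rose and 24.4% fell. The pathway's receptor *dome* had 30.6, 32.4 and 30.3 CPM in double mutants, against 26.6, 24 and 21.8 CPM in *Gpdh1* mutants (log2 fold change 0.36, SE 0.0742, adjusted p = 0.00364), without overlap, the adjusted p with the double mutant libraries summed being 0.0938. *TotC*, a Turandot stress peptide, rose at a level under 1 CPM, with 0.719, 0.671 and 0.781 CPM in double mutants, against 0.0847, 0 and 0.13 CPM in *Gpdh1* mutants (3.27, adjusted p = 0.000697), and the phosphatase *Ptp61F* passed narrowly (0.14, adjusted p = 0.0296, but adjusted p = 0.0983 without double mutant replicate 2). The repressor *ken* fell, with 37.6, 41.5 and 40.8 CPM in double mutants, against 79.4, 95.2 and 89.3 CPM in *Gpdh1* mutants (log2 fold change -1.15, SE 0.0721, adjusted p = 1.70e-06). The kinase *hop* (-0.03), the transcription factor *Stat92E* (0.105) and the feedback inhibitor *Socs36E* (0.11) did not pass, although *Socs36E* did without *Gpdh1* mutant replicate 2 (adjusted p = 0.0127), and the other 5 lay between -0.19 and 0.07.

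Among immune genes most lysozymes rose and most inducible peptides fell. Of 31 antimicrobial peptide and lysozyme genes 6 rose and 19 fell (median -2.21). *LysE*, a lysozyme of the gut, had 177, 186 and 178 CPM in double mutants, against 13.3, 14.7 and 23.9 CPM in *Gpdh1* mutants (log2 fold change 3.37, SE 0.176, adjusted p = 5.13e-07), and *LysB* 188, 217 and 197 CPM in double mutants, against 23.8, 22 and 30.6 CPM in *Gpdh1* mutants (log2 fold change 2.97, SE 0.115, adjusted p = 9.36e-08). Both were without overlap, and of the 5 lysozymes with Lys names that were tested 4 rose. *LysE* was also high in double heterozygotes, with 154, 128 and 172 CPM in double heterozygotes and 26.5, 13.4 and 16.2 CPM in *Gpdh1* heterozygotes, and its difference was 0.37, adjusted p = 0.489. The Bomanins, short peptides switched on by Toll signalling, went the other way, with 8 of 9 falling and 1 rising. Of 19 genes with other inducible peptide names, such as the Diptericins, Attacins and Cecropins, 11 fell and 2 rose. These families, the lysozymes included, were counted by symbol, and together they hold genes outside the list of 31. *BomS1* had 0.683, 0.459 and 0.373 CPM in double mutants, against 63.5, 10.5 and 41.1 CPM in *Gpdh1* mutants (log2 fold change -6.25, SE 0.776, adjusted p = 0.000152), and *BomS2* 0.467, 0.494 and 0.407 CPM in double mutants, against 46.9, 3.67 and 49.7 CPM in *Gpdh1* mutants (log2 fold change -6.19, SE 1.04, adjusted p = 0.00102). *Gpdh1* mutant replicate 2 was the lowest of its group for each, yet above every double mutant library.

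*BomBc1* had 0 counts in all 3 double mutant libraries and 8.18, 0.783 and 14 CPM in *Gpdh1* mutants, at least 60.4-fold lower in double mutants when the floor is set at 3 counts per library (adjusted p = 0.00654). *edin*, a gene raised by infection, had 0.18, 0.282 and 0.373 CPM in double mutants, against 69.2, 2.02 and 4.63 CPM in *Gpdh1* mutants (log2 fold change -6.48, SE 1.63, adjusted p = 0.00999), where a single *Gpdh1* mutant library carried most of the signal, and it no longer passed with the double mutant libraries summed (adjusted p = 0.144). The inducible peptides varied far more among the *Gpdh1* mutant libraries than among the double mutants, and the number that fell was 27 of 34 without *Gpdh1* mutant replicate 2, 16 of 32 without replicate 1, 13 of 34 without double mutant replicate 3 and 8 of 34 with the double mutant libraries summed. In the controls *BomS2* was at 0.29, 8.94 and 0.301 CPM in double heterozygotes and 0, 37.9 and 0.686 CPM in *Gpdh1* heterozygotes, so that 1 library of each control genotype was far above its fellows. The difference from the control change passed for 4 more positive and 1 more negative of the 31, for 3 and 2 of 34 without double heterozygote replicate 2, and for 1 of 34 with the double mutant libraries summed.

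Peptidoglycan recognition proteins, which sense bacterial cell wall, had 3 members that rose and 2 that fell of 9, but 1 rose with DESeq2, with the double mutant libraries summed, and without any 1 double mutant library or *Gpdh1* mutant replicate 2. *PGRP-LA* had 22, 21.6 and 20.5 CPM in double mutants, against 49.2, 51.2 and 49.3 CPM in *Gpdh1* mutants (log2 fold change -1.23, SE 0.0494, adjusted p = 1.16e-07), and *PGRP-LB* 26.6, 25.3 and 27 CPM in double mutants, against 16.4, 16.3 and 14.5 CPM in *Gpdh1* mutants (log2 fold change 0.73, SE 0.0664, adjusted p = 1.85e-05). *PGRP-SC2* passed narrowly (0.41, adjusted p = 0.0323, but adjusted p = 0.103 without *Gpdh1* mutant replicate 2), with values of 4.13, 3.95 and 4.21 CPM in double mutants and 2.97, 2.6 and 3.67 CPM in *Gpdh1* mutants. Hemocyte markers fell in 6 of 9 cases and rose in 0 (0 higher also at an unadjusted p under 0.05 and by DESeq2). *PPO1* and *PPO2*, the prophenoloxidases of crystal cells, had 24.8, 26.6 and 26.9 CPM and 22.7, 25.1 and 25.2 CPM in double mutants, against 53.4, 54.5 and 51.8 CPM and 52.8, 51.5 and 51 CPM in *Gpdh1* mutants (-1.04 and -1.1, adjusted p = 3.41e-07 and 3.72e-07). *Hml*, which marks plasmatocytes, had 44, 44.4 and 42.7 CPM in double mutants, against 72, 71.3 and 67.5 CPM in *Gpdh1* mutants (log2 fold change -0.69, SE 0.0457, adjusted p = 2.23e-06), below all 9 other libraries. The summed level of the 9 hemocyte markers was 168.7 to 173.9 CPM in double mutants and 259.4 to 276.1 CPM in *Gpdh1* mutants, with 259.4 to 316.8 CPM over the 6 controls, and its part in the fall of the immune peptides was not tested.

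**Figure D4:**
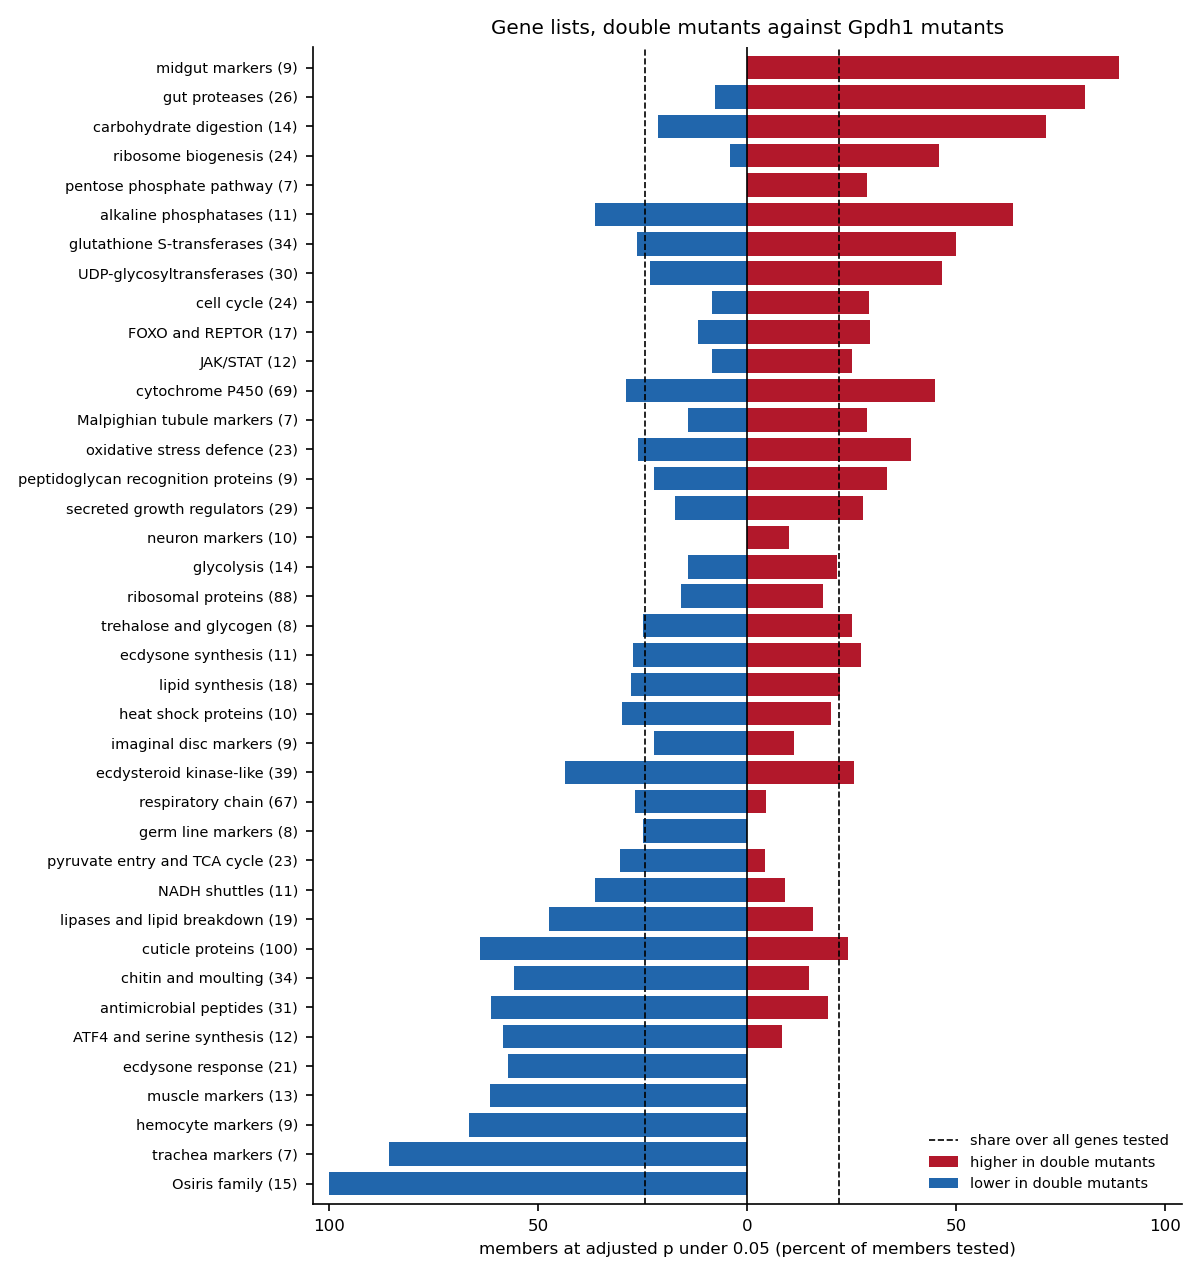
Share of each list's tested members (number in brackets) that were higher (right) or lower (left) in double mutants than in *Gpdh1* mutants at adjusted p under 0.05, with dashed lines at the shares over all genes tested, 21.9% and 24.4%. Midgut markers (8 of 9), gut proteases (21 of 26) and carbohydrate digestion (10 of 14) lean to the right, and Osiris genes (15 of 15) and cuticle proteins (64 of 100) to the left.

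Lipid genes moved both ways, and the shares of lipid synthesis genes were near the background of 21.9% higher and 24.4% lower. Of 18 genes of lipid synthesis 4 rose and 5 fell, and of 19 lipases and genes of lipid breakdown or transport 3 rose and 9 fell, the 9 becoming 4 with the double mutant libraries summed and 5 without double mutant replicate 1 or 2. *Desat1*, a fatty acid desaturase, had 1395, 1381 and 1381 CPM in double mutants, against 1007, 991 and 1062 CPM in *Gpdh1* mutants (log2 fold change 0.43, SE 0.0479, adjusted p = 7.03e-05), and the fatty acid elongase gene *Baldspot* 301, 308 and 287 CPM in double mutants, against 454, 481 and 484 CPM in *Gpdh1* mutants (log2 fold change -0.67, SE 0.0497, adjusted p = 4.71e-06). *Mtp*, needed to load lipoprotein, fell below all 9 other libraries, with 144, 142 and 148 CPM in double mutants, against 255, 238 and 257 CPM in *Gpdh1* mutants (log2 fold change -0.798, SE 0.0492, adjusted p = 1.50e-06). Among storage proteins of the fat body *Lsp1beta* had 9.05, 9.25 and 8.62 CPM in double mutants, against 27.6, 96.2 and 121 CPM in *Gpdh1* mutants (log2 fold change -3.19, SE 0.468, adjusted p = 0.000441). Its controls were far higher, between 397 and 2582 CPM in double heterozygotes and 2019.7 and 4723 CPM in *Gpdh1* heterozygotes, so both mutants had little of a transcript that accumulates in the last larval instar. The new glue genes *ng1*, *ng2* and *ng3* of the salivary gland all rose, *ng3* with 141, 149 and 146 CPM in double mutants, against 17.5, 20.7 and 34.6 CPM in *Gpdh1* mutants (log2 fold change 2.57, SE 0.2002, adjusted p = 6.72e-06). Double mutants were above all other libraries for *ng3*, and the difference was 3.12, adjusted p = 0.000112.

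Genes of growth and stress programmes mostly changed by small amounts. Ribosome biogenesis genes rose in 11 of 24 cases and fell in 1 (median 0.13), *Non1* having 404, 409 and 405 CPM in double mutants, against 293, 271 and 286 CPM in *Gpdh1* mutants (log2 fold change 0.51, SE 0.0466, adjusted p = 1.96e-05), but 2 rose with the double mutant libraries summed and 5 to 7 without any 1 double mutant library or without *Gpdh1* mutant replicate 1 or 3. Of 88 ribosomal protein genes 16 rose and 14 fell (median -0.03), both under the background, and 5 fell without double mutant replicate 1 or 2. Cell cycle genes rose in 7 of 24 cases and fell in 2, the replication factor *Mcm3* by 0.501, adjusted p = 0.000608, and 2 rose with the summed libraries and 4 without any 1 double mutant library or without *Gpdh1* mutant replicate 3. *foxo* and *REPTOR-BP*, regulators of growth arrest under starvation, rose by 0.39, adjusted p = 0.0011 and 0.62, adjusted p = 0.000409, in a list where 5 of 17 rose and 2 fell, beside 21.9% and 24.4% of all genes. *tobi*, whose large fall is given above, is also on this list and was its only called member. In the ATF4 and serine synthesis list 1 of 12 rose and 7 fell (median -0.21), among them *trbl*, a pseudokinase, at -0.74, adjusted p = 4.58e-05, and *Nmdmc*, a mitochondrial folate enzyme, at -0.65, adjusted p = 4.96e-05. The symbols *Asns*, *astray*, *Phgdh*, *Psat* and *Trib3* found no match for this list. Of 10 heat shock proteins 2 rose and 3 fell, with *Hsp83* at 0.44, adjusted p = 0.000163 and *Hsp27* at -0.54, adjusted p = 0.000275.

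Markers of other tissues were read the same way. Muscle markers fell in 8 of 13 cases and rose in 0 by edgeR (median -0.19; 0 higher also at an unadjusted p under 0.05 and by DESeq2), by small steps such as the -0.32 of *wupA*, a troponin, and 1 fell with the double mutant libraries summed. Of 10 neuronal markers 1 passed, *nSyb* (0.18, adjusted p = 0.04002, but adjusted p = 0.134 without double mutant replicate 1), and 0 fell, with 0 lower also at an unadjusted p under 0.05, while DESeq2 passed 0 in either direction and 5 rose without double mutant replicate 3. *nub*, on the imaginal disc list and known from enterocytes as well, had 12.6, 11.6 and 12.8 CPM in double mutants, against 6.65, 6.06 and 5.97 CPM in *Gpdh1* mutants (log2 fold change 0.98, SE 0.0817, adjusted p = 1.05e-05), with 1 of the 9 disc markers rising and 2 falling. In the germ line list 2 of 8 fell, *vas* with 4.35, 5.36 and 5.19 CPM in double mutants, against 10.8, 8.98 and 9.73 CPM in *Gpdh1* mutants (log2 fold change -0.99, SE 0.107, adjusted p = 6.17e-05) and *aub* at -0.51, adjusted p = 0.00303. Among the 3 markers of male dosage compensation *lncRNA:roX1* had 188, 195 and 178 CPM in double mutants, against 161, 166 and 168 CPM in *Gpdh1* mutants (0.17, adjusted p = 0.0172, but adjusted p = 0.079 without double mutant replicate 2), and *lncRNA:roX2* did not pass (-0.15, adjusted p = 0.156).

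The genes with the largest folds fell into several patterns across the 12 libraries. Some were high in both double genotypes. *CG31219* had 16.1, 16.4 and 15.7 CPM in double mutants, against 0.0847, 0.0824 and 0.173 CPM in *Gpdh1* mutants (log2 fold change 7.09, SE 0.16, adjusted p = 1.56e-08), and its controls had 11.4, 11 and 12 CPM in double heterozygotes and 0.0898, 0.201 and 0.129 CPM in *Gpdh1* heterozygotes. *mthl8*, a receptor of the methuselah-like family, had 14.8, 12.9 and 14.1 CPM in double mutants, against 0.254, 0.124 and 0.389 CPM in *Gpdh1* mutants (log2 fold change 5.75, SE 0.194, adjusted p = 5.64e-08), and 5.56, 4.91 and 4.98 CPM in double heterozygotes and 0.135, 0.151 and 0 CPM in *Gpdh1* heterozygotes. In both genes the double genotypes were high and the single genotypes close to 0, and the difference from the control change was 0.77, adjusted p = 0.425 for *CG31219* and 0.02, adjusted p = 0.982 for *mthl8*. *CG4783*, *CG12522* and *CG15741* showed the same order, with control log2 fold changes of 3.8, 3.24 and 2.52 beside mutant ones of 6.37, 4.63 and 4.01, and of these the difference passed for *CG4783* (2.56, adjusted p = 0.000906).

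Others were set apart mainly in double mutants. *CG32071* had 18.3, 18.4 and 16.7 CPM in double mutants, against 0, 0.0824 and 0.303 CPM in *Gpdh1* mutants (log2 fold change 7.07, SE 0.297, adjusted p = 1.58e-07), with at most 0.705 CPM in any control library. *CG34454* had 6.04, 5.86 and 5.26 CPM in double mutants, against 0.339, 0.288 and 0.0865 CPM in *Gpdh1* mutants (log2 fold change 4.54, SE 0.238, adjusted p = 5.18e-07), and the antisense RNA *asRNA:CR45600* 0.395, 0.424 and 0.204 CPM in double mutants, against 20.7, 26 and 19.5 CPM in *Gpdh1* mutants (log2 fold change -6.01, SE 0.205, adjusted p = 5.64e-08). Each was outside the range of the other 9 libraries. *CG31380* had 0 counts in every double mutant library and 4.32, 3.5 and 4.28 CPM in *Gpdh1* mutants, at least 31.8-fold lower by the floor of 3 counts per library (adjusted p = 2.18e-06). *lncRNA:CR44316* was close to 0 in double mutants and in *Gpdh1* heterozygotes alike, with 0.0719, 0 and 0.034 CPM in double mutants, against 4.7, 3.63 and 7.13 CPM in *Gpdh1* mutants (log2 fold change -7.02, SE 0.527, adjusted p = 5.37e-06), and 0.705, 2.17 and 1.8 CPM in double heterozygotes and 0.0898, 0.101 and 0.0429 CPM in *Gpdh1* heterozygotes. *CG7377* and *CG32379* were near 0 in *Gpdh1* mutants and reached 2.16 to 2.41 and 2.62 to 3.11 CPM in double mutants. The difference from the control change did not pass for *CG32071* (2.89, adjusted p = 0.538) or *CG7377* (4.22, adjusted p = 0.932). It passed for *CG34454*, *asRNA:CR45600*, *CG31380*, *lncRNA:CR44316* and *CG32379* (adjusted p at most 0.0153). *CG31380* was also lower in double than in *Gpdh1* heterozygotes (-2.94, adjusted p = 0.0356, but 0.107 without double heterozygote replicate 1).

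Another set had fold changes of opposite sign in the mutants and the controls. *CG14572* had 5.53, 4.76 and 6.21 CPM in double mutants, against 0.0424, 0.124 and 0.0865 CPM in *Gpdh1* mutants (log2 fold change 5.94, SE 0.268, adjusted p = 2.25e-07), while its controls had 0, 0.0761 and 0 CPM in double heterozygotes and 2.83, 30.8 and 5.45 CPM in *Gpdh1* heterozygotes. *Lcp3*, a larval cuticle protein, had 46.7, 45.8 and 49.2 CPM in double mutants, against 1.69, 0.742 and 3.46 CPM in *Gpdh1* mutants (log2 fold change 4.59, SE 0.278, adjusted p = 1.36e-06), and 7.92, 15.5 and 8.21 CPM in double heterozygotes and 29.6, 335 and 83.4 CPM in *Gpdh1* heterozygotes. In both, the *Gpdh1* mutants and the double heterozygotes were low and the double mutants and *Gpdh1* heterozygotes high, with replicate 2 of the *Gpdh1* heterozygotes far above the rest of its group. *CG14569* and *CG15597* followed the same order, with mutant log2 fold changes of 4.06 and 4.67 and control ones of -6.0 and -2.82. *CG3650* was detected at 1.69 to 2.61 CPM in double mutants and 0.494 to 1.66 CPM in *Gpdh1* heterozygotes, with at most 0.0865 CPM in *Gpdh1* mutants and 0 counts in double heterozygotes. Between the controls *Lcp3* and *CG15597* did not pass (adjusted p = 0.0574 and 0.0583), except without *Gpdh1* heterozygote replicate 1 (0.0367 and 0.032). *CG14572*, *CG14569* and *CG3650* passed (adjusted p = 0.0367, 0.0285 and 0.0423), but not without double heterozygote replicate 1 (0.13, 0.115 and 0.11).

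The most abundant genes called higher included *Fst*, a gene first known for its response to cold, with 2530.4, 2587 and 2439 CPM in double mutants, against 1077, 1080.2 and 1028 CPM in *Gpdh1* mutants (log2 fold change 1.24, SE 0.0503, adjusted p = 1.28e-07), *Vajk3* with 1485, 1499 and 1514 CPM in double mutants, against 615, 603 and 609 CPM in *Gpdh1* mutants (log2 fold change 1.29, SE 0.0442, adjusted p = 5.64e-08), and *CG7298* at 1.11, adjusted p = 7.91e-07. Groups without overlap were a condition for picking these genes, and *Fst* was above all 9 other libraries. On the lower side *CG15731* had 446, 444 and 464 CPM in double mutants, against 1681, 1578 and 1704 CPM in *Gpdh1* mutants (log2 fold change -1.88, SE 0.0522, adjusted p = 2.38e-08), *CG7406* was at -1.79, adjusted p = 3.27e-07 and *ect*, an ectodermal gene, at -1.37, adjusted p = 4.58e-07. For *ect* the difference from the control change passed (-1.53, adjusted p = 0.00247), and for *CG15731* it did not (-0.73, adjusted p = 0.438), except without double heterozygote replicate 2 (-1.18, adjusted p = 0.0055).

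The control comparison gave fewer calls and less stable ones. Between double and *Gpdh1* heterozygotes 75 of 10532 genes (0.712%) were called higher and 237 (2.25%) lower. The total of 312 (2.96%) became 17 without double heterozygote replicate 1, 20 without *Gpdh1* heterozygote replicate 3 and 111 without *Gpdh1* heterozygote replicate 2, so control values serve here as a companion for single genes rather than as a list. Of the mutant calls tested in both, 286 of 406 that rose and 558 of 685 that fell had the same sign in the controls, beside 57.8% of all genes tested in both. Genes called in the same direction in both comparisons numbered 44 higher and 52 lower, and 26 higher and 3 lower in the mutants were called in the opposite direction in the controls. Without double heterozygote replicate 2 the same sign was found for 289 of 412 that rose and 521 of 689 that fell, and the numbers called in the same direction were 34 and 105.

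A test of the difference between the mutant and control changes over all 12 libraries called 831 of 10880 genes (7.64%) by the same limits, of which 467 (4.29%) were more positive and 364 (3.35%) more negative in the mutants. At adjusted p under 0.05 the difference had the same direction as the mutant change for 269 of the 467 genes called higher (57.6%) and 266 of the 722 called lower (36.8%). Without double heterozygote replicate 2 these became 277 and 442, the count for the genes called lower moving most. The remaining mutant calls were not shown to go beyond the change between the heterozygotes. With the double mutant libraries summed into 1 the 831 became 495. By group, the difference passed for 7 of 14 carbohydrate digestion genes in the positive and 1 in the negative direction, 6 and 1 of 26 gut proteases, 26 and 9 of 69 cytochrome P450 genes, 6 and 15 of 39 ecdysteroid kinase-like genes and 4 and 3 of 11 alkaline phosphatases. With double heterozygote replicate 2 left out the same lists gave 7 and 2 of 14, 5 and 1 of 26, 27 and 13 of 72, 7 and 15 of 39, and 4 and 4 of 11. With the double mutant libraries summed they gave 3 and 1 of 14, 2 and 1 of 27, 16 and 5 of 73, 2 and 9 of 39, and 4 and 2 of 11.

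**Figure D5:**
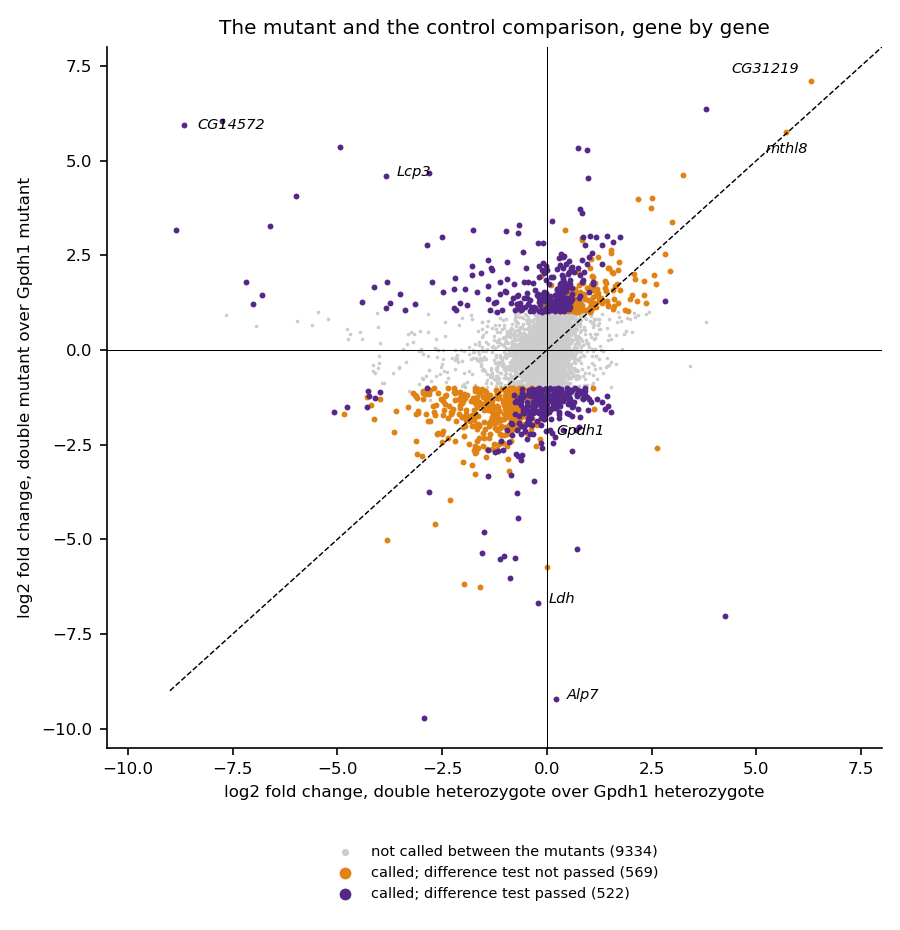
Log2 fold change of double mutants over *Gpdh1* mutants (vertical axis) against that of double heterozygotes over *Gpdh1* heterozygotes (horizontal axis) for the 10425 genes tested in both, with a dashed line where they are equal. The 522 called genes whose difference passed at adjusted p under 0.05 lie off that line, the 569 called genes whose difference did not pass scatter about it, and *Ldh* and *Alp7* sit near 0 on the horizontal axis.

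Called genes were not spread evenly along the genome. Their share was 13.2% of the genes tested on 3R, 12.8% on 3L, 10.3% on 2R, 9.62% on X, 8.70% on 2L and 5.68% on chromosome 4. *Ldh* lies on 3L, and within 250 kb of its start 15 of 56 genes tested were called (26.8%), 8 higher and 7 lower, against 15.9% within 1000 kb, while 9.80% were called within 250 kb of *Gpdh1*. Most of those near *Ldh* belong to a pair of clustered families, the Jon65A serine proteases and the Lcp65A cuticle genes. *Jon65Aiv* had 1590.3, 1605 and 1754 CPM in double mutants, against 487, 498 and 675 CPM in *Gpdh1* mutants (log2 fold change 1.57, SE 0.118, adjusted p = 5.57e-06), and *Jon65Aiii* and *yip7* beside it rose by 1.61 and 1.45. The difference from the control change passed narrowly for *Jon65Aiv* (1.1, adjusted p = 0.0283, but 0.0621 without *Gpdh1* mutant replicate 1). It did not pass for *yip7* (0.55, adjusted p = 0.247) or *Jon65Aiii* (0.92, adjusted p = 0.0665, but 0.0275 without *Gpdh1* heterozygote replicate 2). In the cuticle cluster *Lcp65Ad* had 15.7, 15.8 and 17.6 CPM in double mutants, against 80.6, 80.5 and 104 CPM in *Gpdh1* mutants (log2 fold change -2.44, SE 0.107, adjusted p = 1.97e-07), while *Lcp65Aa* rose by 1.24, adjusted p = 7.04e-06. Variants linked to the *Ldh* alleles and the loss of LDH cannot be told apart in this stretch.

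Runs of at least 4 neighbouring tested genes called in the same direction numbered 15 and held 71 genes, 2 runs holding 8 genes that rose and 13 runs holding 63 genes that fell. The Bomanin cluster (2R:18382704-18390242, Ensembl BDGP6.54) was a run of 8 genes with a median log2 fold change of -3.62, and the Osiris cluster on 3R made 3 runs, from Osi24 to Osi12 (3R:6198811-6282495), from Osi14 to CG46026 (3R:6299128-6309030) and from Osi17 to Osi20 (3R:6311772-6341424). Other runs that fell were Tweedle, Cpr and Ccp84 cuticle clusters. The runs that rose were the new glue genes on X (X:3236130-3242934, median 1.63) and the Jon65A proteases (3L:6035216-6053215, median 1.55). Members of such tandem families are similar in sequence, and reads that mapped to several places, 8.06 to 14.7% of those counted per library, were left out of the gene counts.

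The strand setting of the counting was not given in the sources used here, so reads of a gene and an annotated partner on the opposite strand cannot be told apart. Among the genes named above this touches asRNA:CR45600, aub, CG15741, CG31219, Cyp6g1, Eno, Gbp2, Got2, Gpdh1, Gpdh3, GstE1, Hr4, Hsp27, Hsp83, Ilp8, Lcp65Ag3, lncRNA:roX1, Mal-A1, Mcm3, mld, NimB5, Nmdmc, PCB, SdhD, sro, tobi, Treh, TwdlE and Zw, and a partner on the same strand overlaps ect, ftz-f1, ImpL2 and vas. Called genes were shorter than the rest, with a median of 1274 exon bases for those that rose and 1494 for those that fell, against 2040 over all protein-coding genes tested, and their part in the calls was not tested.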

How the data were processed

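RNA of whole larvae was sequenced as paired ends on a NextSeq500. Per the submitters' processing notes, bcl2fastq 2.20.0.422, cutadapt 1.12, HISAT2 2.1.0 and HTSeq 0.9.0 were used, and the authors deposited raw counts per FlyBase gene, 1 table a library, with 17185 genes. The build and strand setting behind these counts are not given in the sources used here; the study's methods describe a separate quantification, not used here. Symbols and coordinates came from Ensembl BDGP6.54, which named 17059 of the genes. Lines that name no gene stayed out of library sizes.

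The main test was edgeR 4.0.16 (R 4.3.3, limma 3.58.1), quasi-likelihood F test on the 6 mutant libraries, filterByExpr with a minimum count of 10, TMM scaling, two-sided, with Benjamini-Hochberg adjustment. The controls had their own fit on 6 libraries, and the difference of both contrasts was fitted on all 12. Mean log2 CPM used a prior count of 2. The fits were tested on simulated data. Alternatives were RLE size factors, DESeq2 1.42.0, other count filters, a single fit, a replicate block, left-out libraries, and the double mutant libraries summed into 1, tried because they differed so little. Members and gene lists were chosen with earlier results of these data known. Named genes were the mutated genes, the 12 largest changes and 8 most abundant calls in each direction, up to 4 members of each list by adjusted p with all of 4 short lists, genes at no more than 3 counts in 1 mutant genotype, and calls within 250 kb of the start of Ldh. The largest changes and most abundant calls were taken only where the mutant groups did not overlap. The largest changes also had to reach a floor of mean level in the higher group.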

Additional observations from a re-analysis of the deposited data

Results flagged for a closer look

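The change between the mutants and the change between the controls differed for 831 genes in the test of the difference itself over all 12 libraries. The step from *Gpdh1* mutants to double mutants and the step from *Gpdh1* to double heterozygotes therefore did not move these genes alike.

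Reads that fell on no annotated gene were outside the main measurement. Their median share of all counted reads was 0.9896% in double mutants and 1.007% in *Gpdh1* mutants, both above the 0.737 to 0.838% of double heterozygotes and the 0.813 to 0.836% of *Gpdh1* heterozygotes.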

How the results depend on the processing

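The mutant calls kept 81.9 to 99.9% of their genes under every alternative run, and 0 of the shared calls changed sign. Genes called higher numbered 467, against 466 with RLE size factors, 449 with DESeq2, 529 with no low-count filter, 368 with at least 10 counts in every library, 460 with all 12 libraries in 1 fit, 433 with the double mutant libraries summed into 1, and 453 to 488 when a library was left out. Genes called lower numbered 722, against 724, 709, 789, 606, 646, 654 and 711 to 757 in the same order, and without the fold limit 2344 rose and 2610 fell. Same-numbered libraries of the mutants had deviations correlated at 0.0067, 0.024 and -0.017. These values cannot decide whether replicate numbers pair the libraries, since the double mutant libraries varied so little. The replicate block called 470 higher and 714 lower. The 312 control calls became 859 without the fold limit, 505 with DESeq2, 623 with all 12 libraries in 1 fit, 54 with the replicate block and 17 to 333 with a library left out. The 831 calls of the difference became 2781 without the fold limit, 755 with the replicate block, 495 with the double mutant libraries summed, and 698 to 946 with a library left out. Of the named genes that did not pass, 8 changed sign with a library left out, *Mdh1* between -0.0194 and 0.0919, *Mdh2* between -0.02004 and 0.0785, *Got1* between -0.0196 and 0.0553, *Men-b* between -0.00153 and 0.0616, *hop* between -0.0843 and 0.00245, *upd2* between -0.0304 and 0.251, *upd3* between -0.058 and 0.185 and *Gbp2* between -0.241 and 0.0325. With the double mutant libraries summed, *BomS2* (adjusted p = 0.0522), *Glys* (0.158), *PCB* (0.14), *fbp* (0.0729), *sro* (0.0645), *wupA* (0.0707) and *Zw* (0.0698) no longer passed, and with all 12 libraries in 1 fit neither did *Gpo1* (0.17) or *Zw* (0.187). The narrow passes were lost without any of 5 of the 6 libraries for *upd1*, *Gbp1*, *Ilp3*, *Ptp61F*, *PGRP-SC2* and *nSyb*, of 4 for *Actbeta* and *Ilp2*, of 3 for *Gbp3* and of 2 for *Eno*, *Glyp* and *lncRNA:roX1*. The cause was not tested. In all, 119 of 157 named genes kept their direction and their side of the threshold under each of 13 alternatives, and 22 pairs of gene and alternative were not run because the gene did not pass that filter or had no adjusted p. List counts that moved by more than 1.5 times with the summed libraries, beside those given with each list, were those falling in the TCA cycle (7 to 2), the ATF4 list (7 to 4), ribosomal proteins (14 to 3), lipid synthesis (5 to 3) and heat shock proteins (3 to 1), those rising in ribosomal proteins (16 to 7), the FOXO and REPTOR list (5 to 2), lipid synthesis (4 to 2), JAK/STAT (3 to 1) and the respiratory chain (3 to 1), and those rising in glycolysis, the pentose phosphate pathway and heat shock proteins and falling in the cell cycle, FOXO and disc lists, which came to 1 or fewer. With all 12 libraries in 1 fit 11 respiratory chain genes, 7 ribosomal protein genes and 5 lipases fell and 7 ribosome biogenesis genes and 5 secreted growth regulators rose. Of the antimicrobial list 11 fell with at least 10 counts in every library, 4 TCA cycle genes fell with no low-count filter, and 8 ribosomal protein genes fell with the replicate block, while 3 secreted growth regulators fell with DESeq2, with no filter, with the block and without *Gpdh1* mutant replicate 2 or double mutant replicate 3, and 4 cell cycle genes fell with RLE size factors. Apart from the neuronal markers, list counts of 3 or fewer moved by no more than 2 genes when a library was left out. With 3 libraries a genotype, genes of a few counts could not be resolved.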

Other observations

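Families outside the lists, looked at after their values were seen, were also counted, beside 21.9% rising and 24.4% falling over all genes tested. Of 22 tested subunits of the vacuolar proton pump, named Vha, 13 rose and 3 fell in double mutants, with a median log2 fold change of 0.15. Odorant-binding proteins were near those shares, 6 rising and 6 falling of 23, between -2.45 and 2.44. Of 8 Npc2 sterol carriers 4 rose and 2 fell, and of 8 mucins 4 rose and 2 fell.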
